A study of Oncorhynchus mykiss with 6 samples.

Results

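The miR-200 family is a group of microRNAs (miRNAs, short regulators that silence mRNAs they pair with) known as markers of epithelial cells. It was followed here in the head kidney of rainbow trout (Oncorhynchus mykiss) held at 18 °C or 24 °C. The family was taken as every annotated row of the deposited table whose Atlantic salmon (ssa) name carries the number of miR-200, miR-141 or miR-429, with any letter and arm. This gave 6 of the 1381 rows, or 6 of the 392 rows with salmon names. They were ssa-miR-200b-3p, ssa-miR-200a-3p, ssa-miR-429-3p, ssa-miR-200b-5p, ssa-miR-200a-1-5p and ssa-miR-200a-3-5p, written below without the prefix. Rows for miR-141 and miR-200c were not analysed here. Small RNA was sequenced from 6 female fish aged 1 year, with 1 library per fish. The control group was 3 fish at 18 °C and the heat-treated group 3 fish at 24 °C, and no other treatment or strain is named for either group. How long the heat lasted is not stated in the labels.

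In vertebrates, miR-200 family members keep epithelial cells in their sheet-like state. They repress the transcription factors ZEB1 and ZEB2, which silence E-cadherin, and these factors in turn repress the miR-200 genes. In mammals miR-200b, miR-200a and miR-429 are cut from a common primary transcript. The family has 2 seed groups, miR-200b with miR-429 and miR-200a with miR-141, which differ by a single base and share many targets. The head kidney of teleosts is a blood-forming and immune organ that also holds interrenal endocrine cells, and in adults little nephron tubule. Blood cells, the bulk of the organ, are not known for high miR-200 levels.

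Library totals ran from 3753036 to 5156793 counts. Across all rows, 537 held enough counts for the edgeR test, and every pair of libraries differed by more than sampling noise. Of the miRNAs that mark a blood-forming organ, miR-144 of red cells and the leukocyte and endothelial lists were counted, as sums, in every library. Summed CPM (counts set to a common library total, with TMM factors between libraries) of miR-126 rows was 81200 to 107200, and that of the leukocyte rows (miR-142, miR-150 and miR-155) was 9590 to 17470.

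The 3p arms of miR-200b and miR-200a held nearly all of the family. miR-200b-3p was the most abundant member. Its level was 289, 43.3 and 294.5 CPM in control replicates 1, 2 and 3, and 51.7, 100.7 and 102.0 CPM in heat replicates 1, 2 and 3. Control replicates 1 and 3 stood above all 3 heat libraries, whereas control replicate 2 stood below all 3, so the groups overlapped. The mean of the controls was 209 ± 143.5 CPM, and that of the heated fish was 84.8 ± 28.7 CPM (SD, n = 3 per group). By mean level the row ranked 121 among the 392 annotated rows.

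miR-200a-3p, which carries the other seed of the family, was high and low in much the same fish. It stood at 152.0, 30.7 and 152.0 CPM in the control libraries and at 26.05, 83.5 and 68.9 CPM in the heat libraries. Control replicate 2 and heat replicate 1 were the low libraries, in the reverse order of miR-200b-3p, and control replicates 1 and 3 were again the high ones. The group means were 112 ± 70.1 CPM (control) and 59.5 ± 29.9 CPM (heat; SD, n = 3 per group), and the row ranked 137 among annotated rows.

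miR-429-3p shares its seed with miR-200b-3p but was close to the detection floor, with 34 counts over the 6 libraries against 4199 for miR-200b-3p. Its counts were 14, 1 and 10 in the control libraries and 0, 2 and 7 in the heat libraries. The zero in heat replicate 1 allows up to 3 counts, or 0.579 CPM. Of the summed counts of miR-200b-3p and miR-429-3p, miR-429-3p took 0.941% in control replicate 1 (exact binomial 95% interval 0.515% to 1.57%). The share was 0.617% in control replicate 2 (0.0156% to 3.39%), 0.705% in control replicate 3 (0.339% to 1.29%), 0.465% in heat replicate 2 (0.0564% to 1.67%) and 1.499% in heat replicate 3 (0.605% to 3.06%). In heat replicate 1 it was 0 of 268 counts, with an exact binomial 95% interval up to 1.37%. These intervals cover counting error only and overlap throughout, so a difference in this share between fish was not detectable at this depth.

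The 5p arms, which are mostly discarded when the hairpin is loaded into Argonaute, were scarce. miR-200b-5p had 23, 1 and 13 counts in the control libraries and 0, 7 and 7 in the heat libraries. Its share of the counts of both arms was 1.54% in control replicate 1 (exact binomial 95% interval 0.976% to 2.30%), 0.915% in control replicate 3 (0.488% to 1.56%), 1.61% in heat replicate 2 (0.649% to 3.29%) and 1.499% in heat replicate 3 (0.605% to 3.06%). In the low libraries it was 1 of 162 counts in control replicate 2 (0.0156% to 3.39%) and 0 of 268 in heat replicate 1 (up to 1.37%). Over all libraries the 3p arm of miR-200b outnumbered the 5p arm 82.3 to 1. For miR-200a the numbers were 2417 counts of the 3p row against 4 in both 5p rows together. The rows miR-200a-1-5p and miR-200a-3-5p, named for separate hairpins, had 2 counts each, never more than 1 in a library. The 3p row carries no hairpin number, so the source of its reads among these copies cannot be told apart.

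Summed over its 6 rows, the family took 0.0452%, 0.00741% and 0.0455% of the counts in control replicates 1, 2 and 3. It took 0.00782%, 0.0176% and 0.0183% in heat replicates 1, 2 and 3. The exact binomial 95% interval of control replicate 2 was 0.00656% to 0.00833% and that of control replicate 1 was 0.0433% to 0.0471%. The difference between these fish of the same group was therefore far larger than counting error. The highest share was 6.14 times the lowest among controls and 2.34 times the lowest among heated fish. The low libraries were control replicate 2, which had the fewest counts in all (3753036), and heat replicate 1, which had the most (5156793). The control mean was 0.0327% ± 0.0219 and the heat mean 0.0146% ± 0.00586 (SD, n = 3 per group), a difference of -0.0181 percentage points. Leaving out control replicate 2 made it -0.0307, while leaving out control replicate 1 or 3 made it -0.0119 or -0.0117. In bulk tissue, fewer epithelial cells and less miR-200 per cell cannot be told apart.

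**Figure D1:**
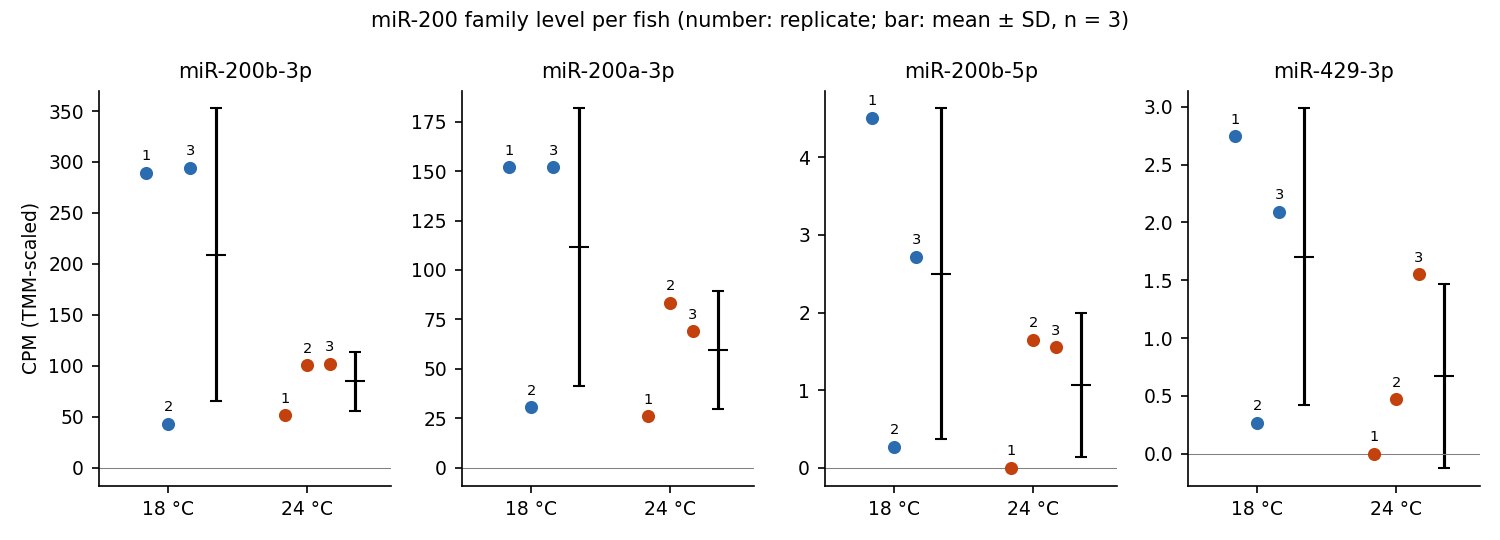
Level of miR-200b-3p, miR-200a-3p, miR-200b-5p and miR-429-3p in CPM (linear axes, a separate scale for each panel) in each fish at 18 °C (blue) and 24 °C (orange), with the replicate number over each point and a black bar for the mean ± SD (n = 3). In all 4 rows control replicates 1 and 3 lie above the 3 heat libraries and far above control replicate 2.

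The comparison of heat with control asks whether these levels differ with temperature by more than they differ between fish. Of the 6 rows, 2 passed the filter on low counts and were tested, miR-200b-3p and miR-200a-3p. Neither passed. The background was 1 call among 537 tested rows, which is 0.186%, and that call was on the higher side. The log2 fold change of miR-200b-3p (24 °C over 18 °C) was -1.30 ± 0.68 (SE; edgeR quasi-likelihood adjusted p = 0.63, unadjusted p = 0.097). Its 95% interval ran from -2.91 to 0.31. The interval thus spans a level at 24 °C between 0.133 and 1.24 times that at 18 °C. For miR-200a-3p the log2 fold change was -0.91 ± 0.67 (edgeR adjusted p = 0.76, unadjusted p = 0.22), with an interval from -2.49 to 0.67. At an unadjusted p under 0.05, where edgeR counted 6.52% of all tested rows, it counted 0 of the miR-200 rows. DESeq2 also called no miR-200 row, with 0.931% of all tested rows called. The unadjusted DESeq2 p of miR-200b-3p was 0.045 (adjusted p = 0.56), on the lower side, where 4.28% of all tested rows had such a p under 0.05.

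Both estimates were negative, as were 49.7% of those of all tested rows, whose median log2 fold change was 0.002. The estimate of miR-200b-3p lay at the 3.35th percentile of all tested rows and that of miR-200a-3p at the 7.26th. By p-value the rows ranked 80 and 152 of 537. In neither row were the groups fully apart, a state found in 12.8% of tested rows. With the 6 rows summed into a single row, the log2 fold change was -1.15 ± 0.67 (95% interval -2.74 to 0.43). When no filter was applied, miR-200b-5p had an estimate of -1.32 ± 1.12 and miR-429-3p of -1.41 ± 1.05, and neither passed (edgeR adjusted p = 0.82 and 0.79).

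The size of the estimates depended on control replicate 2. Without control replicate 2, the log2 fold change of miR-200b-3p was -1.85 ± 0.35 (edgeR adjusted p = 0.25, unadjusted p = 0.0021) and that of miR-200a-3p -1.42 ± 0.50 (edgeR adjusted p = 0.50). The other 5 libraries, left out in turn, gave -1.54 to -1.002 for miR-200b-3p and -1.25 to -0.60 for miR-200a-3p. Every one of these values was negative, and none passed.

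**Figure D2:**
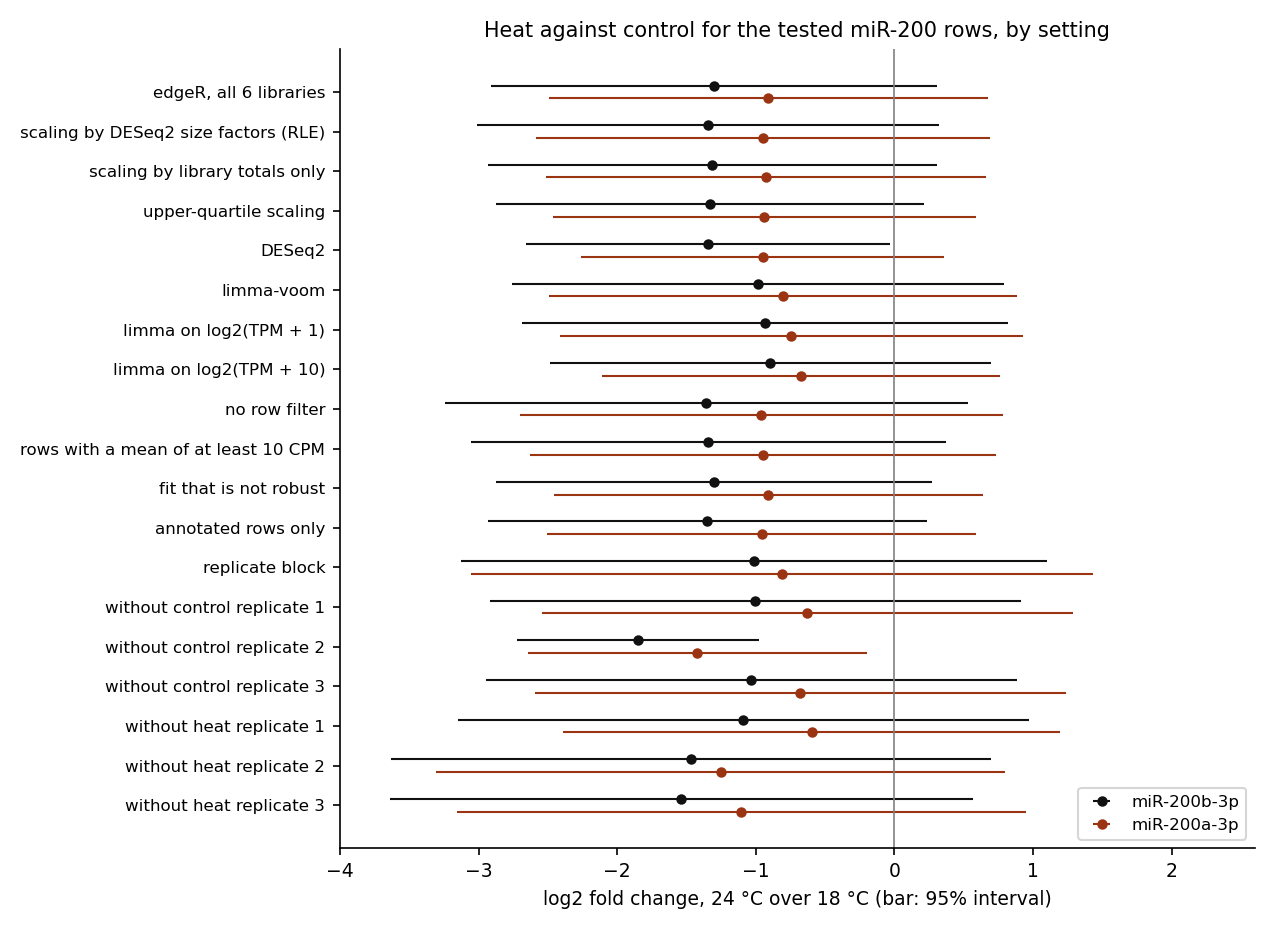
Log2 fold change (24 °C over 18 °C, x axis) of miR-200b-3p (black) and miR-200a-3p (brown) with 95% intervals, for edgeR on all 6 libraries (top) and for each other scaling, tool, filter or library left out. All points lie below 0; the interval of miR-200b-3p excludes 0 in DESeq2 and without control replicate 2, and that of miR-200a-3p without control replicate 2.

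The spread between fish of the same group was large for rows of this abundance. The within-group SD of log2 CPM was 1.19 for miR-200b-3p, against a median of 0.34 over the 60 tested rows with a mean level within 2-fold of it, among which it ranked 4 from the top. For miR-200a-3p it was 1.13 against a median of 0.40 over 71 such rows, where it ranked 8 from the top. Most of this came from the controls. The SD of miR-200b-3p was 1.58 among the 3 control fish and 0.56 among the 3 heated fish, and that of miR-200a-3p was 1.32 and 0.89. Without control replicate 2 the within-group SD was 0.46 for miR-200b-3p and 0.73 for miR-200a-3p. By comparison, miR-203a-3p, a miRNA of stratified epithelium at a like level (207 CPM at 18 °C), had a within-group SD of 0.24. Other rows of surface and sensory epithelium spread more than miR-203a-3p, to unlike degrees, and all were scarcer than miR-200b-3p. The SD was 1.19 for miR-205b-5p, 0.91 for miR-96-5p and 0.68 for miR-203b-3p. It was 0.60 for miR-183-5p, 0.59 for miR-182-5p, 0.42 for miR-205a-5p and 0.35 for miR-205a-3p. Of these, miR-205a-5p (mean 80.3 CPM) was close in abundance to miR-200a-3p (mean 85.5 CPM).

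**Figure D3:**
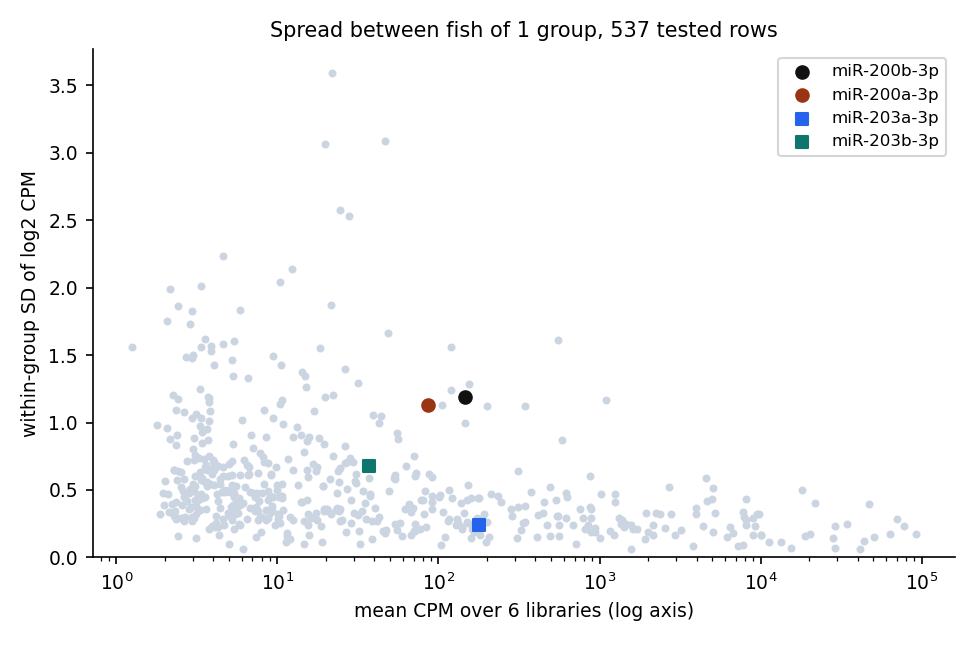
Within-group SD of log2 CPM (y axis) against mean CPM over 6 libraries (log x axis) for the 537 tested rows (grey), with miR-200b-3p, miR-200a-3p, miR-203a-3p and miR-203b-3p coloured. The miR-200 rows lie at 1.19 and 1.13, above most rows of their abundance, while miR-203a-3p lies at 0.24.

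miR-200b-3p and miR-200a-3p varied together from fish to fish. Over the 6 libraries their log2 CPM had a Pearson r of 0.97 (two-sided exact permutation p = 0.021) and a Spearman rho of 0.89 (exact permutation p = 0.033). Correlation was computed for this pair of rows only, and these p-values were not adjusted. Without control replicates 1 and 3, the libraries farthest from the median of miR-200b-3p, r was 0.95. Over deviations from each group's mean, an alternative chosen after seeing the data, r was also 0.97, and it was 0.78 without the farthest libraries there, control replicate 2 and heat replicate 1. Both rows come from the same libraries and share their depth and scaling.

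Within a library the ratio of miR-200b-3p to miR-200a-3p moved less than either level, whose highest value was 6.80 times the lowest for miR-200b-3p and 5.84 times for miR-200a-3p. The ratio was 1.90, 1.41 and 1.94 in control replicates 1, 2 and 3 and 1.99, 1.21 and 1.48 in heat replicates 1, 2 and 3. The log2 ratio averaged 0.79 ± 0.26 in the control and 0.61 ± 0.36 in the heat libraries (SD, n = 3 per group). The difference of -0.19 was smaller than the spread between fish (two-sided exact permutation p = 0.7, where 3 against 3 cannot go below 0.1). It was -0.02 without heat replicate 2, -0.38 without heat replicate 1 and -0.33 without control replicate 2, with -0.16 to -0.10 without each of the others. The share of miR-200b-3p in the counts of both rows was lowest in heat replicate 2, at 54.7% (exact binomial 95% interval 51.1% to 58.2%). It was highest in heat replicate 1, at 66.5% (61.7% to 71.1%). These intervals do not overlap, so heated fish differed from each other in this share by more than counting error.

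The annotated rows closest to the miR-200 profile were then sought. Each row's log2 CPM was centred on its own mean over the 6 libraries, and the distance between rows was the root mean square difference of these profiles. miR-200a-3p and miR-200b-3p lay 0.27 apart. Among the other annotated rows with a mean of at least 10 CPM, the median distance was 1.14 from miR-200b-3p and 1.05 from miR-200a-3p. The closest to miR-200b-3p were miR-203b-3p (0.43), miR-725-3p (0.59), miR-205b-5p (0.60), miR-96-5p (0.64) and miR-146a-3-3p (0.77). The same first 4 rows, in another order, were closest to miR-200a-3p, with miR-725-3p at 0.41, miR-205b-5p at 0.45, miR-203b-3p at 0.47 and miR-96-5p at 0.67, followed by miR-144-3p at 0.70. In mammals miR-203 and miR-205 are known from skin and other stratified epithelia, and miR-96 from sensory epithelium. The other tested rows of the miR-96 cluster lay farther from miR-200b-3p. These were miR-183-5p at 0.84 and miR-182-5p at 1.01, with 4.04% and 19.7% of those rows at least as close. miR-144 is a red cell family, and miR-725 and miR-146 were in none of the cell type lists used here.

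miR-203b-3p stood at 66.5, 21.8 and 67.1 CPM in the control libraries and at 18.5, 23.8 and 25.9 CPM in the heat libraries. Control replicates 1 and 3 were thus its high libraries too, and it did not pass either, with a log2 fold change of -1.19 ± 0.46 (edgeR adjusted p = 0.63). miR-205b-5p stood at 38.5, 10.5 and 32.4 CPM in the control and at 3.09, 15.1 and 19.5 CPM in the heat libraries. Heat replicate 1 was its lowest library, as for miR-200a-3p. The log2 fold change of miR-205b-5p was -1.12 ± 0.74 (edgeR adjusted p = 0.73). Both rows were picked for their closeness to the miR-200 profile over these same libraries. Their likeness to it in high and low fish, and in the sign of the estimate, follows from that choice.

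The a paralogs of the same families had another order of fish. miR-203a-3p, at 199.1, 210.4 and 211.2 CPM in the control and 186.2, 143.8 and 116.6 CPM in the heat libraries, was not low in control replicate 2 or heat replicate 1. Its distance from miR-200b-3p was 1.08, and 31.4% of those rows lay at least as close. miR-205a-5p was highest where miR-200 was lowest, with 107.4 CPM in control replicate 2 and 107.5 CPM in heat replicate 1 against 59.5 to 77.5 CPM in the other 4 libraries. Its distance from miR-200b-3p was 1.34, with 85.2% of those rows at least as close. Most tested rows of the nephron miRNAs (miR-30, miR-192, miR-194 and miR-204) lay farther from miR-200b-3p than most of those rows did. miR-204-5p lay at 1.22 (72.2% of rows at least as close), miR-192a-5p at 1.43 (92.4%) and miR-194a-5p at 1.45 (93.3%). The miR-30 rows fell on both sides, largely by arm. Their 3p rows lay farther off than most rows did, apart from miR-30e-3p at 1.035 (23.8%). All of their 5p rows lay closer than most. These included miR-30d-5p at 0.88 (8.97%), miR-30c-5p at 0.90 (9.9%), miR-30a-5p at 1.08 (32.3%) and miR-30e-5p at 1.11 (42.6%). The abundant miR-30b-5p lay at 1.05 (27.8%). The profiles were centred but not scaled, so a nearly flat row can lie closer than most without following miR-200. The highest library of miR-30b-5p was only 1.15 times its lowest, and that of miR-203a-3p 1.81 times. These distances describe 6 libraries and carry no test.

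**Figure D4:**
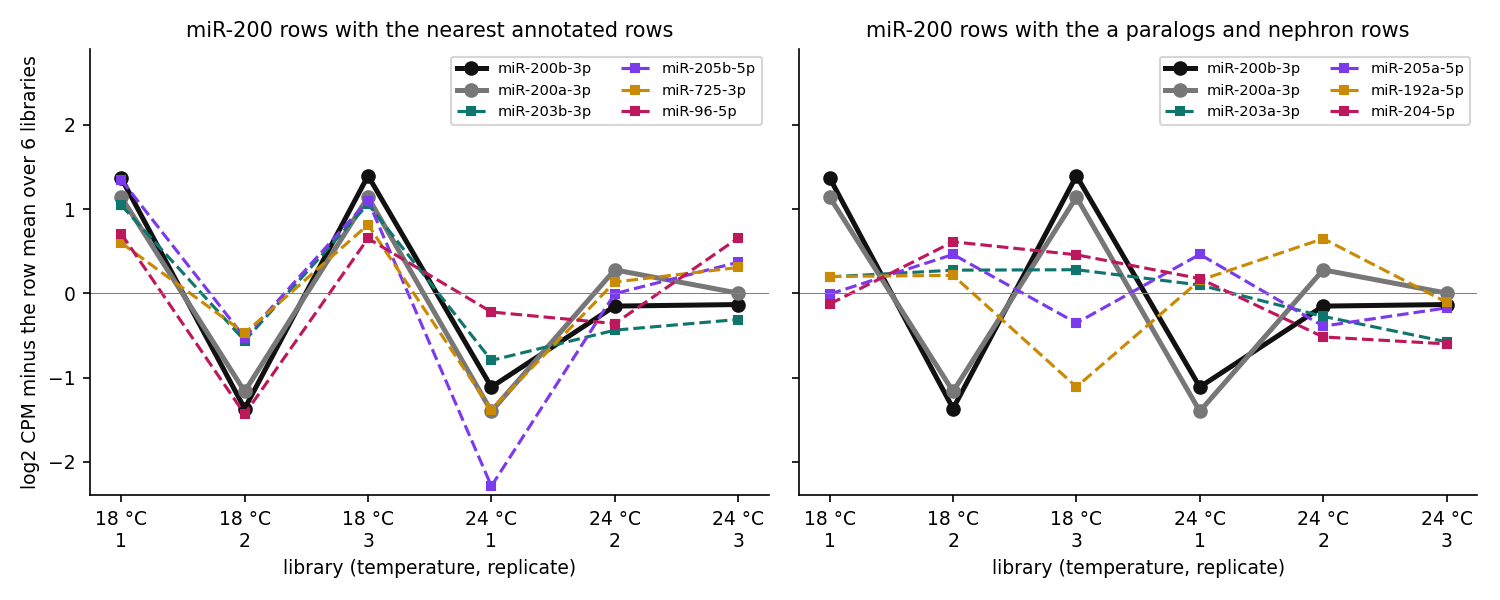
Log2 CPM minus the row's own mean over 6 libraries (y axis) in each library (x axis), for miR-200b-3p and miR-200a-3p (solid lines) with 4 nearest annotated rows (left, dashed) and with miR-203a-3p, miR-205a-5p, miR-192a-5p and miR-204-5p (right, dashed). On the left the rows are high in control replicates 1 and 3 and low in control replicate 2. There miR-96-5p is as high in heat replicate 3 (19.51 CPM) as in control replicate 3 (19.45 CPM). On the right the dashed rows, which were not selected by distance, do not follow the miR-200 rows. Some rows shown in neither panel lay closer to miR-200b-3p than these, such as stromal miR-143-3p at 0.86 (6.28% of rows at least as close). Its other arm, miR-143-5p, lay at 1.21 (66.4%).

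The members were also compared with other miRNAs by their within-library ratios, which need no scaling between libraries. Each of the 2 rows was set against the most abundant row of 9 families of epithelial, tubule, endocrine or stromal origin, which gave 18 ratios. In none were the groups fully apart. The two-sided exact permutation p ran from 0.2 to 0.9 (adjusted 0.68 to 0.9). Since 3 against 3 cannot go below 0.1, no ratio could have passed, and these p-values do not show that the ratios were alike. The log2 ratio of miR-200b-3p to miR-203a-3p was -0.42 ± 1.61 at 18 °C and -0.85 ± 0.88 at 24 °C, a difference of -0.43 (exact permutation p = 0.6). Leaving out control replicate 1, control replicate 3 or heat replicate 1 turned this difference to 0.05, 0.02 or 0.07. Against miR-204-5p, a miRNA of kidney tubule and eye, the difference of miR-200b-3p was -0.30 (exact permutation p = 0.8), and it turned to 0.37, 0.09 or 0.27 without the same libraries. The differences farthest from 0 were -1.59 for miR-200b-3p against miR-194a-5p (exact permutation p = 0.3), another tubule and gut miRNA, and -1.53 against miR-182-5p (exact permutation p = 0.2). The latter ratio stood at 2.46 ± 1.02 on the log2 scale at 18 °C and 0.93 ± 0.53 at 24 °C (SD), so this difference exceeded the SD of either group, although the libraries overlapped. The -1.59 was -2.69 without control replicate 2, and -0.79 without control replicate 3.

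Other cell types were followed by lists of families beside the miR-200 values. No row of the skin and surface epithelium list (miR-203 and miR-205, 5 of 8 rows tested) passed in either direction. All 5 estimates of that list were negative, as were 49.7% of those of all tested rows. They ran from -1.19 to -0.04, with a median of -0.48 and miR-205a-5p at -0.06. The list summed to 360 to 390 CPM at 18 °C and 239 to 327 CPM at 24 °C, with miR-203a-3p its most abundant row. Of all single tested rows, 12.8% had groups fully apart. In the nephron tubule list (miR-30, miR-192, miR-194 and miR-204, 19 of 21 rows tested) none passed and the median was -0.08, at a summed 51310 to 54900 CPM at 18 °C and 44050 to 51830 CPM at 24 °C. That sum was mostly miR-30, with miR-30b-5p alone at 14720 to 16990 CPM over the 6 libraries. By contrast, miR-204-5p stood at 785.6 to 1821 CPM, miR-192a-5p at 380.4 to 1290 CPM and miR-194a-5p at 84.7 to 244.8 CPM. The sensory epithelium cluster (miR-96, miR-182 and miR-183, 3 of 6 rows tested) had a median of 0.16 with none passed. It summed to 172.8, 68.1 and 150.6 CPM in the control and 124.6, 116.2 and 222.3 CPM in the heat libraries. This sum was lowest in control replicate 2, as miR-200b-3p was, but highest in heat replicate 3, unlike miR-200b-3p. Stroma and smooth muscle rows (miR-143, miR-145, miR-199 and miR-214, 8 of 8 tested, none passed, median -0.14) summed to 80610, 55780 and 75970 CPM in the control and 59370, 69140 and 46410 CPM in the heat libraries. Control replicates 1 and 3 were the highest there as well, but heat replicate 3 was the lowest, unlike for miR-200b-3p. The part of these cell types in the miR-200 values was not tested.

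Families tied to epithelial-mesenchymal transition, the process that miR-200 restrains, did not pass either. Of the families known to restrain it in mammals (miR-203, miR-205, miR-30 and miR-145), 20 of 23 rows were tested, with 0 called in edgeR and a median log2 fold change of -0.13. Of those known to promote it (miR-9, miR-10, miR-21, miR-155, miR-221 and miR-222), 21 of 27 were tested, with 0 called and a median of 0.11. The abundant miR-21b-5p, tied to inflammation and fibrosis, stood at 0.11 ± 0.17 and miR-10a-5p at -0.18 ± 0.14. The median of all tested rows was 0.002. Of the restraining rows tested, 18 of 20 had negative estimates, and of the promoting rows 8 of 21, against 49.7% of all tested rows. The lists go by family number, so they count both arms and several paralogs of a family. Most of the restraining rows tested were miR-30 rows. The rows are therefore not independent, and these counts were not tested. The miR-203, miR-205 and miR-30 rows of the restraining list are also those of the skin and nephron lists above.

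The remaining lists held 1 called row, miR-499a-5p of striated muscle, which rose (log2 fold change 2.53 ± 0.25, edgeR adjusted p = 0.0092). Striated muscle rows summed to 411 to 725.1 CPM at 18 °C and 1137 to 2326 CPM at 24 °C (6 of 11 tested, median 1.64). Of all single tested rows, 12.8% had groups fully apart. The estimate of the paralog miR-499b-5p was -0.66 ± 0.61 (edgeR adjusted p = 0.84), the 1 negative value among the 6. Red cell rows summed to 383 to 870 CPM and 405 to 3052 CPM (2 of 2 tested, median 0.84). Neither sum shared the order of fish of miR-200: in both, heat replicate 3 was highest. The red cell sum was mostly miR-144-5p (3015 CPM in heat replicate 3), whereas miR-144-3p was among the 5 rows nearest to miR-200a-3p. Medians were 0.10 for the endocrine list (4 of 10 tested), -0.03 for endothelium (2 of 2) and 0.25 for leukocytes (6 of 7), with none passed. The leukocyte sum was 17030, 9590 and 15650 CPM in the control libraries. It was 14520, 13830 and 17470 CPM at 24 °C. Control replicate 2 was thus its lowest library, as for miR-200b-3p, although heat replicate 3 was its highest. The endothelium sum instead peaked in control replicate 2 (107200 CPM), with its minimum in control replicate 3 (81200 CPM). The part of either cell type in the miR-200 values was not tested. The single tested rows of liver (miR-122-5p, -0.36 ± 0.91) and gonad (miR-202-3p, -2.23 ± 0.95) did not pass. Summed levels were 28050 to 31510 and 30540 to 32300 CPM for the endocrine rows, 5.30 to 81.6 and 24.2 to 74.1 CPM for liver, and 12.2 to 87.6 and 2.51 to 20.0 CPM for gonad, at 18 °C and 24 °C. The endocrine sum (miR-7 and miR-375) was mostly miR-7a-5p, at 26980 to 31050 CPM over the 6 libraries.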

How the data were processed

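Small RNA libraries of total RNA were made with the NEBNext small RNA kit, per the labels' protocols. The authors deposited whole-number counts for each miRNA. The deposited TPM values equal each count over its library's sum, set to a common total (largest difference 2.33e-10), with no length term. The submitters' processing notes name Bowtie, without its role, with the genome build and the treatment of reads that match several copies not given in the sources used here. Groups follow the titles and the design text. With 1 library per fish, the replicate is the fish.

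The test was edgeR 4.0.16 (R 4.3.3) with filterByExpr (minimum count 10, minimum total 15; 537 rows, 99.9% of counts), TMM scaling, a robust quasi-likelihood fit, Benjamini-Hochberg over the 537 rows and a threshold of 0.05. SE is the log2 fold change over the root of F. A count of 3 is worth 0.579 to 0.807 CPM. Log2 CPM used a prior count of 2, and ratios 0.5 added per count. The edgeR fit was tested on simulated data. Alternatives used DESeq2 1.42.0, limma 3.58.1, other scalings, filters and subsets of libraries. Figures used matplotlib 3.10.9. Rows named were all family members, the 5 nearest annotated profiles of each tested member, up to 3 most abundant rows per list of 13, and the reference rows of the ratios; miR-205a-5p and miR-203a-3p are among these. Of the listed families, miR-34, miR-208, miR-211, miR-215, miR-223 and miR-451 were not analysed here. The members, lists and rules were chosen with earlier results of these data known.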

Additional observations from a re-analysis of the deposited data

How the results depend on the processing

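No member row passed under any of the alternatives run, and the log2 fold changes kept their sign: -1.85 to -0.89 for miR-200b-3p (adjusted p 0.25 to 0.93) and -1.42 to -0.60 for miR-200a-3p (0.50 to 0.97) over 18 alternatives each. With the replicate number as a block they were -1.01 and -0.81. Same-numbered fish did not deviate together (correlations of -0.06, -0.18 and -0.15), so the numbers give no sign of pairing, and the replicate block changed no call. Leaving out each library moved the within-group SD of log2 CPM between 0.46 and 1.35 for miR-200b-3p and between 0.73 and 1.28 for miR-200a-3p, an alternative chosen after seeing the data; both low ends are without control replicate 2, the low control fish. The same step moved the heat against control difference of the log2 ratio of miR-200b-3p to miR-200a-3p between -0.38 and -0.02. Among the 162 alternative values of ratios to reference rows, 14 turned sign, each from leaving out control replicate 1, control replicate 3 or heat replicate 1. None of these could have passed, since the exact permutation p of 3 against 2 libraries cannot go below 0.1. The ranges were -1.03 to 0.44 for miR-200a-3p against miR-203a-3p, -1.66 to 0.081 against miR-205a-5p, -1.03 to 0.64 against miR-204-5p and -0.90 to 0.18 against miR-143-3p, and for miR-200b-3p -1.36 to 0.067 against miR-203a-3p and -1.37 to 0.37 against miR-204-5p; the cause was not tested. Depth limits miR-429-3p and the 5p rows, at 0 to 23 counts a library.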
